A study of Mus musculus with 12 samples.

Results

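Forsythoside I (FI), a plant-derived phenylethanoid glycoside, was given to mice that received angiotensin II, and the comparison described here sets the ventricles of those mice against ventricles that received angiotensin II with vehicle. It uses 7 of the 12 libraries of the study: replicates 1, 2 and 4 of the Ang II + FI group and replicates 1 to 4 of the Ang II group. Members were taken by the treatment label of each library, and replicate 3 of the Ang II + FI group was left out because it holds liver transcripts, with its values given beside the others. All mice carried the WT genotype. In both groups an osmotic minipump that released Ang II was placed under the skin of the dorsal neck on day 0. The Ang II + FI mice were also injected intraperitoneally with 50 mg/kg FI every other day, beginning the day before the pump and ending on day 14. A saline group of 4 libraries, with vehicle and no Ang II, serves for values beside the comparison and for the shared estimate of spread. No group received FI without Ang II, and the sources used here do not give age, sex, strain, Ang II dose or the hour of tissue collection. The labels give 4 ventricular samples a group and do not state whether any were pooled.

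Angiotensin II is the effector peptide of the renin-angiotensin system. Through its type 1 receptor it constricts vessels and acts on cardiomyocytes, fibroblasts and vascular cells, and sustained infusion in rodents is a standard model of cardiac hypertrophy with fibrosis. In such hearts fibroblasts lay down collagens, elastin and fibronectin, and cardiomyocytes express natriuretic peptides and other genes of the fetal heart. The comparison asks which of these transcripts differ when FI is added to angiotensin II. These are bulk ventricles, so fewer cells of a type and less RNA per cell cannot be told apart.

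Depth was even, at 69777962 to 73468996 counts in the 3 Ang II + FI libraries and 68874852 to 80624227 in the Ang II libraries. Mitochondrially encoded genes took 34.9% to 37.3% of counts with FI and 35.2% to 37.3% without it. Spearman correlations across genes were 0.980 to 0.982 between FI libraries, 0.981 to 0.983 between Ang II libraries and 0.979 to 0.983 between the groups. Cardiomyocyte genes were abundant in the 7 libraries compared, where the 26 sarcomere and Z-disc genes summed to 46823 to 64236 CPM (counts relative to the scaled library total). Of 25 hepatocyte markers, 12 passed the low-count filter. The summed level of all 25 was 38.2 to 40.5 CPM with FI, 35.9 to 44.9 CPM in Ang II 1, 2 and 4, 120.2 CPM in Ang II 3 and 29364 CPM in the library left out. Alb, which encodes serum albumin, had 1054520 counts in that library and 16 to 162 in the other FI libraries. The same library also had 12419 counts of Xist, against 0 to 14 in the other libraries of the study. Its summed adipocyte markers were 551 CPM (112 to 171 CPM elsewhere) and its mesothelial markers 143 CPM (4.88 to 9.41 CPM elsewhere). Mitochondrially encoded genes took 29.1% of its counts, against 34.0% to 38.8% elsewhere. The origin of these transcripts was not tested.

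One transcript passed the test and many matrix transcripts lay lower without passing it. Among 17702 genes, edgeR's quasi-likelihood test with a Benjamini-Hochberg adjusted p under 0.05 found that 0 were higher and 1, Hnrnpa3, was lower with FI (0.00565% of those tested). At an unadjusted p under 0.05 there were 1404 genes (7.93%), of which 596 were higher (3.37%) and 808 lower (4.56%). DESeq2 called 8 genes higher and 18 lower, and limma-voom called 0 in either direction with 1464 at an unadjusted p under 0.05. The 3 FI values lay wholly above the 4 Ang II values for 713 genes (4.03%) and wholly below them for 971 (5.49%), 9.51% of genes in all. The list counts below are to be read beside these shares of all genes. Scaled by library totals alone, 158 genes were higher and 1611 lower at an unadjusted p under 0.05, and the median log2 fold change of all genes moved from -0.0027 to -0.10. For Ang II against saline, a comparison that shares the Ang II libraries, the same fit called 441 genes higher (2.49%) and 242 lower (1.37%). In the text that follows, a gene other than Hnrnpa3 is described by its values, since its difference did not pass edgeR's adjusted threshold with the 11 libraries. DESeq2 passed some of these genes. Among those described here, its calls were Zbtb42, Gm20498, Bdnf and Tsr2 (higher) and Hnrnpa3, Rsc1a1, Fn1, Eln, Adamts9, Egfr, Errfi1, S1pr1, Il4ra, Fbln7 and Etfbl (lower).

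**Figure D1:**
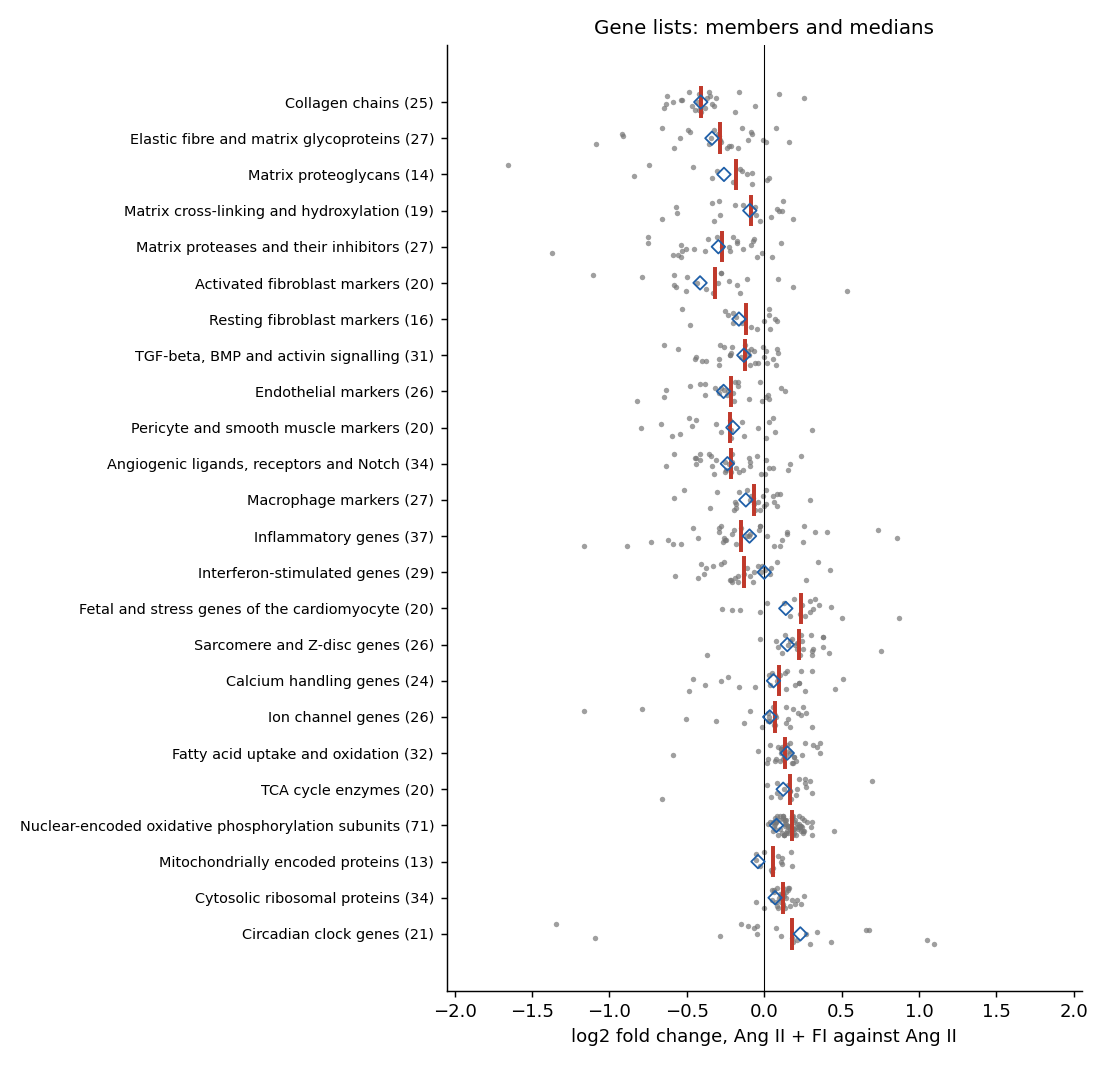
Log2 fold change of Ang II + FI (3 libraries) against Ang II (4 libraries) for the members of 24 gene lists, with the number of tested members in brackets. Grey points are genes, red bars are list medians and open diamonds are medians with the library that holds liver transcripts added; 1 gene lies beyond the axis limits of -2 and 2. Collagen chains lie furthest to the left, with a median of -0.41, and all 71 oxidative phosphorylation subunits lie to the right of 0 (59 when scaled by library totals or with all 12 libraries).

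Hnrnpa3 encodes an RNA-binding protein of the heterogeneous nuclear ribonucleoprotein A/B family that takes part in RNA processing and transport. Its level was 40.5, 10.4, 43.9 and 38.9 CPM in Ang II 1 to 4 and 1.94, 2.02 and 2.05 CPM in Ang II + FI 1, 2 and 4. The FI values lay within a narrow band far below every Ang II value, and Ang II 2 lay well below the other Ang II libraries. The log2 fold change was -4.06 ± 0.41 (SE), or 16.7 times less with FI (edgeR's quasi-likelihood test, adjusted p = 0.00553). The 4 saline libraries lay at 36.3 to 37.6 CPM. The Ang II + FI library that was left out lay at 48.5 CPM, so the low level was seen in 3 of the 4 libraries of that treatment. With all 12 libraries the log2 fold change was -1.29 (edgeR adjusted p = 0.675), and the call was also lost with limma-voom (adjusted p = 0.473), with a robust prior (0.107), in a fit of the 7 libraries alone (0.101) and without Ang II + FI 4 (0.0502). The gene (chromosome 2, 75659261 to 75669407, GRCm38) has processed copies elsewhere in the genome, and the sources used here do not say how multiply mapped reads were counted. One copy, Gm6793, chosen after its values were seen, lay at 3.51 to 4.59 CPM in Ang II and 3.45 to 3.59 CPM with FI.

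Besides Hnrnpa3, 3 protein-coding genes averaging 1 CPM or more differed by more than 4-fold with no overlap between the groups. Zbtb42, a zinc finger protein found at neuromuscular junctions of muscle, lay at 0.902, 0.826, 0.674 and 0.171 CPM in the Ang II libraries and at 4.15, 4.00 and 4.02 CPM with FI. The left-out FI library lay at 3.97 CPM, beside its group, so all 4 FI libraries lay above all 4 Ang II libraries. The saline libraries ranged from 0.872 to 4.07 CPM and thus covered nearly the whole interval between the groups. The log2 fold change was 2.66 ± 0.51 (adjusted p = 0.526 by edgeR and 1.15e-04 by DESeq2). Gm20498 had 4 to 8 counts in the Ang II libraries and 144 to 176 with FI, but 2 in the left-out library, and 65.7% of its exon bases are shared with Cox16 on the same strand. Rsc1a1, which lies wholly within exons of Ddi2, had 440 to 581 counts in Ang II 1, 2 and 4 but 19 in Ang II 3, 13 to 18 with FI and 2138 in the left-out library. Reads on the shared bases, which for Rsc1a1 are all of its exons, cannot be assigned between the overlapping models. Cox16 and Ddi2 themselves, looked up after these values were seen, had log2 fold changes of 0.08 ± 0.19 and 0.03 ± 0.13.

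**Figure D2:**
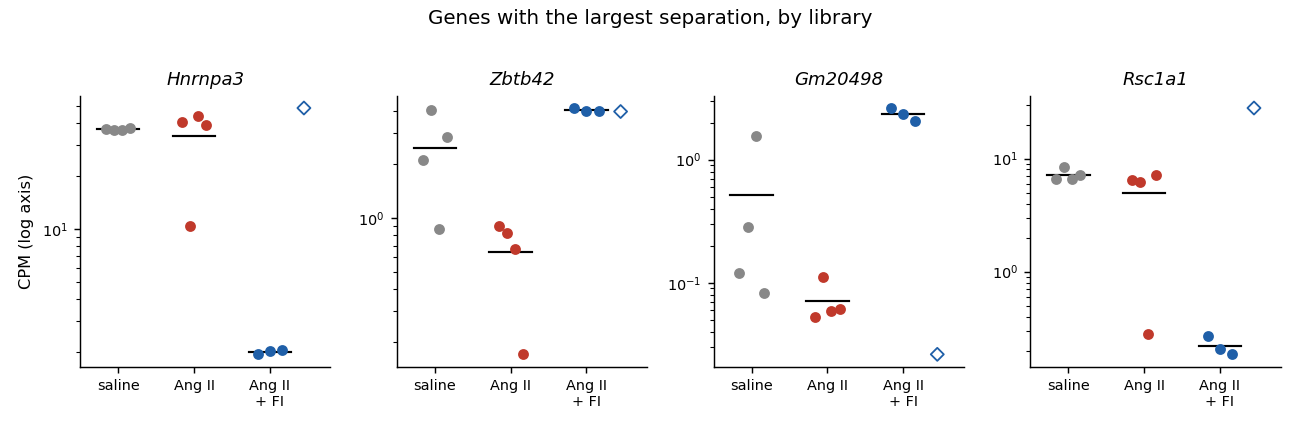
CPM on a log axis of the 4 protein-coding genes with no overlap and a difference above 4-fold, in saline (grey), Ang II (red) and Ang II + FI (blue) libraries; the bar is the group mean and the open diamond the FI library with liver transcripts, which is in no mean. Only for Zbtb42 does the open diamond lie with the other FI libraries.

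Genes of the extracellular matrix lay lower with FI in most cases. None passed edgeR's adjusted threshold with the 11 libraries, while DESeq2 called Fn1, Eln, Adamts9 and the low-level Fbln7 lower. Of 25 tested collagen chains, 23 had a log2 fold change below 0, against 50.4% of all genes. In that direction 15 had an unadjusted p under 0.05 and 16 had no overlap, against 4.56% and 5.49% of all genes. Their median was -0.41. With the left-out library it was also -0.41, and with 1 of the 7 compared libraries left out it ranged from -0.44 to -0.33. The summed CPM of the chains was 1151 to 1267 with FI, 1466 to 1920 in Ang II and 779 to 1146 in saline. For Ang II against saline the same chains had a median of 0.73, with 14 called higher and 0 lower. The 3 other members of the list (Col11a1, Col24a1 and Col6a5) did not pass the low-count filter.

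Col1a1 and Col1a2 encode the chains of type I collagen, the main fibrillar collagen of the heart. Col1a1 lay at 87.0, 74.1, 77.6 and 75.7 CPM in the Ang II libraries and at 54.6, 58.0 and 60.7 CPM with FI, with the left-out library at 49.9 CPM. The groups did not overlap, and the 4 saline libraries lay lower than both, at 35.4 to 46.8 CPM. The log2 fold change was -0.44 ± 0.10 (unadjusted p = 0.00101, edgeR adjusted p = 0.542). For Col1a2 it was -0.43 ± 0.10. Col3a1, the chain of type III collagen that forms fibrils together with type I, lay at 315, 236, 234 and 319 CPM in Ang II and 187, 169 and 172 CPM with FI. Its Ang II libraries fell into a higher and a lower pair, both above the FI libraries, and its log2 fold change was -0.65 ± 0.16. Of the basement membrane and beaded-filament chains, Col4a1 had a log2 fold change of -0.53, Col6a1 of -0.42 and Col6a3 of -0.54.

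Elastin gave one of the smallest p values of any matrix gene. Eln, which encodes the elastic protein of vessel walls, lay at 49.1, 46.2, 48.9 and 65.4 CPM in Ang II and at 26.3, 30.04 and 27.1 CPM with FI. The left-out library lay at 24.03 CPM and saline at 11.1 to 21.9 CPM, so the FI libraries lay between the saline and Ang II groups without touching either. Eln had 1.89 times less signal with FI, a log2 fold change of -0.92 ± 0.20 (unadjusted p = 0.000557, adjusted p = 0.526 by edgeR and 0.00744 by DESeq2). Fn1, which encodes the adhesive glycoprotein fibronectin, lay at 44.5 to 48.2 CPM in Ang II and at 21.5, 21.4 and 30.6 CPM with FI, a log2 fold change of -0.91 ± 0.13 (adjusted p = 0.167 by edgeR, 0.0235 by edgeR without Ang II + FI 4 and 1.77e-06 by DESeq2). Liver also secretes fibronectin, and the library with liver transcripts lay at 291 CPM, with which the log2 fold change turned to 0.99. Of the 27 elastic fibre and glycoprotein genes, 24 lay below 0, 9 of them at an unadjusted p under 0.05, with a median of -0.29. Among them were Nid1, the basement membrane linker nidogen (-0.35 ± 0.11), Fbn1, the microfibril protein fibrillin (-0.49), and Thbs1, thrombospondin (-0.66). The 14 proteoglycan genes had a median of -0.18, and 12 lay below 0. Of the 14, 1 had an unadjusted p under 0.05, the lubricating proteoglycan Prg4 (-0.74 ± 0.28), near the 4.56% of all genes lower at that level.

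Enzymes that mature and cut the matrix were mixed in size and mostly below 0. Of 19 genes for cross-linking and hydroxylation, 13 lay below 0 and 5 had an unadjusted p under 0.05, all lower, with a median of -0.085 (-0.14 without Ang II 3). The 5 act outside the cell on collagen and elastin: the lysyl oxidases Loxl2 (-0.56 ± 0.15), Lox (-0.57) and Loxl1 (-0.32), the procollagen C-proteinase Bmp1 (-0.29 ± 0.10) and its enhancer Pcolce (-0.29 ± 0.10). Bmp1 lay at 44.8 CPM in the left-out library, above all 7 others. Of 27 proteases and inhibitors, 25 lay below 0 and 5 had an unadjusted p under 0.05, with a median of -0.27. Adamts9, a secreted protease that cleaves versican, lay at 23.6, 23.99, 21.5 and 18.1 CPM in Ang II and 14.0, 12.9 and 11.9 CPM with FI, inside the saline range of 11.3 to 17.7 CPM. Its log2 fold change was -0.75 ± 0.15 (adjusted p = 0.526 by edgeR and 0.00935 by DESeq2). Mmp2, a gelatinase, lay at 64.3 to 74.2 CPM in Ang II and 56.4 to 64.0 CPM with FI, a gap of less than 1 CPM between the groups.

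**Figure D3:**
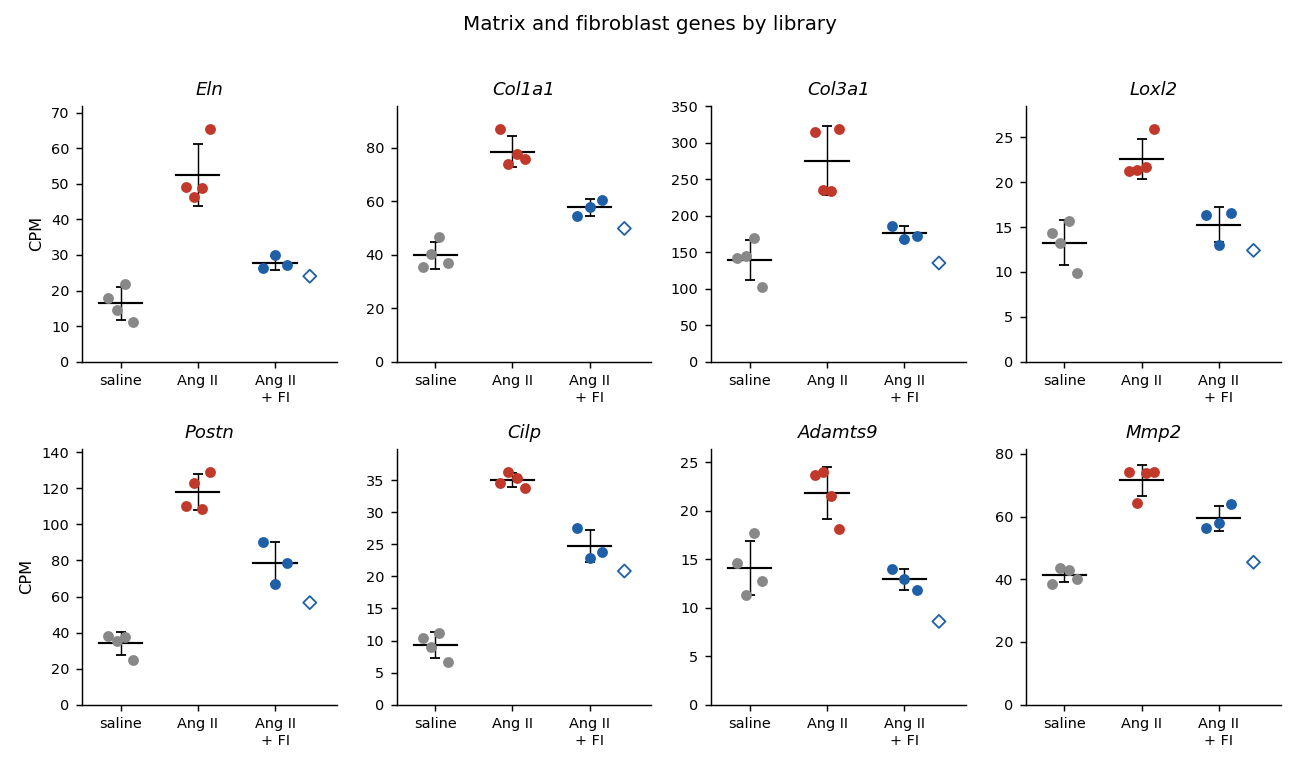
CPM of 8 matrix and fibroblast genes in saline (grey), Ang II (red) and Ang II + FI (blue) libraries; bars are the mean with the SD over 4, 4 and 3 libraries, and the open diamond is the FI library with liver transcripts, which is in no mean. For each of the 8 genes the 3 FI libraries lie below the 4 Ang II libraries, and for Eln, Col1a1, Postn, Cilp and Mmp2 they lie above the 4 saline libraries.

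Markers of activated fibroblasts had a median of -0.32 over 20 genes, with 17 below 0 and 4 at an unadjusted p under 0.05. Postn, the matricellular protein periostin, lay at 110, 123, 109 and 129 CPM in Ang II and at 90.5, 66.9 and 78.4 CPM with FI. Cilp, a secreted protein of the fibrotic heart, lay at 33.7 to 36.3 CPM in Ang II and at 27.5, 22.8 and 23.8 CPM with FI. Both genes remained well above saline, at 24.5 to 38.2 CPM for Postn and 6.62 to 11.2 CPM for Cilp. The log2 fold changes with FI were -0.58 ± 0.15 and -0.50 ± 0.15 (edgeR adjusted p = 0.542 for each), beside 1.79 ± 0.14 and 1.91 ± 0.14 for Ang II against saline. Ccn2, a matricellular protein induced by TGF-beta and by stretch, was at 102 to 159 CPM in Ang II and 131 to 146 CPM with FI. Its log2 fold change was 0.09 ± 0.12 with overlapping groups, and -0.00437 when scaled by library totals. Tgfb1, the TGF-beta ligand itself, was at 16.8 to 20.5 CPM and 11.9 to 17.4 CPM (-0.29 ± 0.15). The 31 genes of TGF-beta, BMP and activin signalling had a median of -0.13. Of these, 2 had an unadjusted p under 0.05, both lower, near the 4.56% of all genes lower at that level. Below 0 lay 24 of the 31, against 50.4% of all genes, and 6 were lower with no overlap, against 5.49%. Runx1, a transcription factor of activated fibroblasts, lay at 1.801 to 1.87 CPM in Ang II and 0.915 to 1.14 CPM with FI (-0.79 ± 0.28). Resting fibroblast markers had a median of -0.11 over 16 genes (-0.07 without Ang II 3 or without Ang II + FI 4). Of these, 3 had an unadjusted p under 0.05, all lower, and 4 had no overlap, beside 4 and 5 of the 20 activated markers. Summed levels of the resting markers overlapped, at 1976 to 2082 CPM in Ang II and 1985 to 2039 CPM with FI.

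Vessel-wall genes also lay lower on balance. Of 26 endothelial markers, 21 lay below 0 and 5 had an unadjusted p under 0.05, with a median of -0.22. S1pr1, the sphingosine-1-phosphate receptor that keeps endothelial junctions closed, lay at 95.6, 85.5, 75.9 and 97.6 CPM in Ang II and 67.5, 49.1 and 53.6 CPM with FI (-0.64 ± 0.14, adjusted p = 0.526 by edgeR and 0.0186 by DESeq2). Pecam1, the adhesion molecule CD31, lay at 129 to 153 CPM in Ang II and 97.7 to 107 CPM with FI (-0.48 ± 0.15). The VEGF receptor gene Kdr had groups that overlapped (-0.38 ± 0.17). The summed endothelial level overlapped as well, at 3593 to 3909 CPM in Ang II and 3322 to 3798 CPM with FI. Of 20 pericyte and smooth muscle markers, 9 had an unadjusted p under 0.05 below 0 and 1 above it, Des, which cardiomyocytes also express. Tagln and Myl9, which encode an actin-binding protein and a myosin light chain of smooth muscle, had log2 fold changes of -0.60 ± 0.14 and -0.46 ± 0.12, each with no overlap. An annotated antisense gene covers 62.4% of the Tagln exons, and without a stated strand setting their reads cannot be told apart. The myosin light chain kinase gene Mylk was at -0.48 ± 0.12 and turned to 0.11 with the left-out library, which lay at 32.2 CPM. The summed level of the list was 2411 to 2664 CPM in Ang II and 2604 to 2717 CPM with FI, so the sums overlapped and did not lie lower with FI.

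Fetal, stress and sarcomere genes of the cardiomyocyte lay mostly above 0. Of 20 fetal and stress genes, 15 lay above 0, 4 had an unadjusted p under 0.05 above 0 and 1 below it, and the median was 0.24 (0.15 when scaled by library totals and 0.14 with all 12 libraries). Nppb, which encodes B-type natriuretic peptide, lay at 190, 323, 370 and 234 CPM in Ang II and at 499, 463 and 574 CPM with FI. The left-out library lay at 410 CPM, so all 4 FI libraries lay above all 4 Ang II libraries, and saline lay at 67.8 to 128 CPM. The log2 fold change was 0.87 ± 0.23 (unadjusted p = 0.00256, edgeR adjusted p = 0.542), in the same direction as 1.47 ± 0.22 for Ang II against saline. Nppa, the atrial natriuretic peptide gene, lay at 272 to 326 CPM in Ang II and 347, 362 and 442 CPM with FI (0.36 ± 0.13), with the left-out library inside the Ang II range at 313 CPM. An annotated gene on the opposite strand covers 61.5% of the Nppa exons, and without a stated strand setting their reads cannot be told apart. Csrp3, a Z-disc protein that responds to stretch, lay at 730 to 931 CPM in Ang II and 949, 1027 and 1550 CPM with FI. Its value rests in part on Ang II + FI 4, without which the log2 fold change was 0.25 in place of 0.50 ± 0.16. The skeletal actin gene Acta1, another fetal gene, did not separate the groups (0.19 ± 0.33).

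Of 26 sarcomere and Z-disc genes, 24 lay above 0 and 10 had an unadjusted p under 0.05, all higher, with a median of 0.23 (0.13 when scaled by library totals and 0.15 with all 12 libraries). Tcap, which caps titin at the Z-disc, lay at 786, 910, 949 and 1144 CPM in Ang II and at 1639, 1445 and 1706 CPM with FI. The left-out library lay at 1429 CPM, also above every Ang II library, but the saline libraries ranged from 591 to 1624 CPM. The log2 fold change of Tcap was 0.75 ± 0.27 (edgeR adjusted p = 0.542). The cardiac troponin I gene Tnni3 lay at 2236 to 2663 CPM in Ang II and at 2682 to 3347 CPM with FI (0.30 ± 0.09), and the ventricular myosin light chain gene Myl2 at 2538 to 3230 CPM and 3287 to 4093 CPM (0.31 ± 0.10). In the left-out library both fell inside the Ang II range. Among adult genes of contraction and calcium handling, the myosin heavy chain gene Myh6 (0.38 ± 0.19) and Atp2a2, the calcium pump of the sarcoplasmic reticulum (0.20 ± 0.13), had overlapping groups. Of 24 calcium handling genes, 17 lay above 0, but at an unadjusted p under 0.05 1 was higher and 3 were lower. Lower genes with no overlap were Itpr1, a calcium release channel (-0.38 ± 0.11), and Atp2b4, a plasma membrane calcium pump (-0.49 ± 0.19). The median of 0.10 became -0.0042 when scaled by library totals and 0.06 with all 12 libraries or without Ang II + FI 2. Of 26 ion channel genes, 19 lay above 0, with a median of 0.07 that became -0.03 when scaled by library totals, 0.04 with all 12 libraries, 0.16 without Ang II + FI 1, -0.02 without Ang II + FI 2 and 0.10 without Ang II + FI 4. At an unadjusted p under 0.05 there were 3 of them, all lower, against 4.56% of all genes in that direction. One was Kcna5, a potassium channel subunit, at 22.8 to 29.0 CPM in Ang II and 12.4 to 15.7 CPM with FI (-0.79 ± 0.22). Adrb1, the main adrenergic receptor of the cardiomyocyte, lay at 6.87 to 8.51 CPM in Ang II and 8.72 to 12.2 CPM with FI (0.42 ± 0.13).

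**Figure D4:**
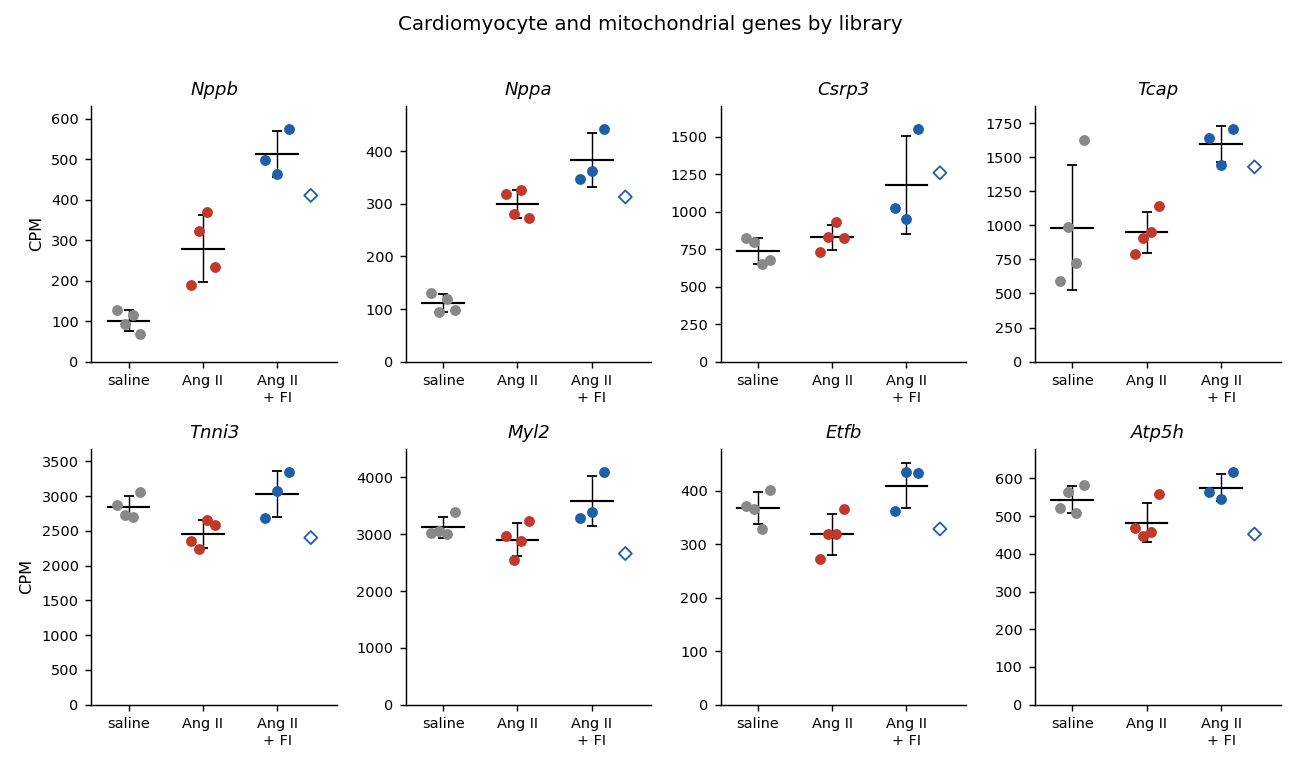
CPM of 8 cardiomyocyte and mitochondrial genes in saline (grey), Ang II (red) and Ang II + FI (blue) libraries; bars are the mean with the SD over 4, 4 and 3 libraries, and the open diamond is the FI library with liver transcripts, which is in no mean. Nppb, Nppa, Csrp3, Tcap, Tnni3 and Myl2 show no overlap between the blue and red points, while Etfb and Atp5h overlap.

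Nuclear genes of mitochondrial energy production shared small positive values. All 71 nuclear-encoded subunits of oxidative phosphorylation had a log2 fold change above 0, against 49.5% of all genes, as did 59 when scaled by library totals or with all 12 libraries. Their median was 0.18, beside -0.02 for Ang II against saline. Of these, 10 had an unadjusted p under 0.05, among them Cyc1, the cytochrome c1 of complex III, at 552 to 628 CPM in Ang II and 643 to 726 CPM with FI (0.23 ± 0.08). The median of the list was 0.08 with all 12 libraries and 0.10 to 0.23 with 1 of the 7 libraries left out. Scaled by library totals it was also 0.08, beside -0.10 for all genes. The TMM scaling factors were 0.956 to 0.960 with FI and 0.963 to 1.085 in Ang II. Of 20 enzymes of the TCA cycle and its feeding reactions, 19 lay above 0 and 7 had an unadjusted p under 0.05 (median 0.17, or 0.08 when scaled by library totals), including Idh3g, an isocitrate dehydrogenase subunit (0.30 ± 0.10), and Pcx, pyruvate carboxylase (0.31 ± 0.09). Pcx was at 99.3 CPM in the library with liver transcripts and at 15.1 to 20.6 CPM in the 7 compared. Of 32 genes of fatty acid uptake and oxidation, 30 lay above 0 and 5 had an unadjusted p under 0.05 (median 0.13, or 0.04 when scaled by library totals and 0.21 without Ang II + FI 1), while for Ang II against saline their median was -0.28, with 6 called lower. Etfb, which passes electrons from fatty acid oxidation to the respiratory chain, lay at 272 to 366 CPM in Ang II and 362 to 435 CPM with FI (0.36 ± 0.11), though 53.01% of its exon bases are shared with another model on the same strand. The 13 mitochondrially encoded protein genes had a median of 0.06, which was -0.04 with all 12 libraries, -0.03 when scaled by library totals and 0.02 to 0.11 with 1 of the 7 libraries left out, and 0 of them had an unadjusted p under 0.05.

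Of 21 genes of the circadian clock, 4 lay higher and 2 lower with FI at an unadjusted p under 0.05, each with no overlap between the groups, and the other 15 did not pass that level. In this clock, BMAL1 (encoded by Arntl) pairs with CLOCK or NPAS2 and binds E-boxes to drive Per, Cry, Nr1d1 and Dbp, while NR1D1 (REV-ERB alpha) represses Arntl at elements built on AGGTCA. The RefSeq promoter windows (GRCm38.p6, 250 bases before to 50 after a start site) covered 17 of the 21 clock genes. Some of these genes have several windows, which can overlap, and there were 25 windows in all. On either strand, the E-box CACGTG was in 6 of the 25 (24%) and AGGTCA in 5 (20%), against 7.15% and 16.3% of all 32851 windows, and the motifs do not overlap each other. The E-box windows belonged to 5 genes, Ciart, Bhlhe41, Cry1, Per1 and Tef. Among the 6 clock genes with an unadjusted p under 0.05, only Bhlhe41 was matched for the E-box and only Arntl for AGGTCA. The windows of Nr1d1, Dbp, Cry2 and Npas2, and the other Arntl window, held neither motif. The matched windows are printed to show the elements, in capitals. The Bhlhe41 window (chr6:145865371-145865670, minus strand) holds the E-box with its first base 153 bases upstream of the start site. The Arntl window (chr7:113207261-113207560, plus strand) holds AGGTCA from 31 bases downstream of the start site. A match describes the letters and not a bound site.
Bhlhe41: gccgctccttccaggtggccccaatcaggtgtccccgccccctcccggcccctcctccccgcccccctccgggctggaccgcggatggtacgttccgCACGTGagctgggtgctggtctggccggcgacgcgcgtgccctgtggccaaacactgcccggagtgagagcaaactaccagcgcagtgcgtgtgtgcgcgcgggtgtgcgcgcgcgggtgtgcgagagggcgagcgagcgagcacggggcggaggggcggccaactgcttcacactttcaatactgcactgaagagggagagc
Arntl: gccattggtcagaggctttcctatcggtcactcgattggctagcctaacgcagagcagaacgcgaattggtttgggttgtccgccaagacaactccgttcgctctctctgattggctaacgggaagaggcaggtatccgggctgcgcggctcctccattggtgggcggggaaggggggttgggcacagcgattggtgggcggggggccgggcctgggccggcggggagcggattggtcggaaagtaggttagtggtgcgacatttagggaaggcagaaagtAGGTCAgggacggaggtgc

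Bhlhe41, a repressor of CLOCK and BMAL1 activity, lay at 11.2, 13.3, 11.3 and 10.2 CPM in Ang II and at 18.4, 17.3 and 19.3 CPM with FI, with the left-out library at 15.8 CPM (0.67 ± 0.16, edgeR adjusted p = 0.542). Nr1d1 lay at 35.3, 45.5, 43.9 and 43.6 CPM in Ang II and at 66.0, 61.9 and 70.7 CPM with FI (0.65 ± 0.19). Dbp, a transcription factor of clock output, lay at 21.3, 46.4, 43.7 and 50.1 CPM and at 89.8, 77.4 and 83.7 CPM (1.05 ± 0.38). For these 3 genes all 4 FI libraries lay above all 4 Ang II libraries. Arntl, Npas2, Cry2, Per2 and Ciart were looked up after the values were seen. The groups overlapped for Per2, a repressor of the loop (0.08 ± 0.47), and for Ciart, another repressor (1.098 ± 0.66). Arntl lay at 13.2, 3.49, 5.89 and 4.16 CPM in Ang II and at 2.76, 2.78 and 2.38 CPM with FI (-1.34 ± 0.49), and Npas2 had a log2 fold change of -1.09 ± 0.49. Ang II 1 held the highest Arntl and the lowest Dbp of the Ang II libraries, and without that library the log2 fold change of Arntl was -0.77. Saline libraries spanned much of the distance between the groups, with Dbp at 26.1, 71.3, 41.7 and 99.9 CPM and Arntl at 14.2, 5.72, 9.94 and 3.98 CPM. The hour of collection was not given, and its part in these values was not tested. Over the 21 clock genes the median was 0.18, which became 0.02 without Ang II 1, 0.28 without Ang II 2, 0.08 without Ang II 3, 0.07 without Ang II + FI 1 and 0.08 when scaled by library totals.

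**Figure D5:**
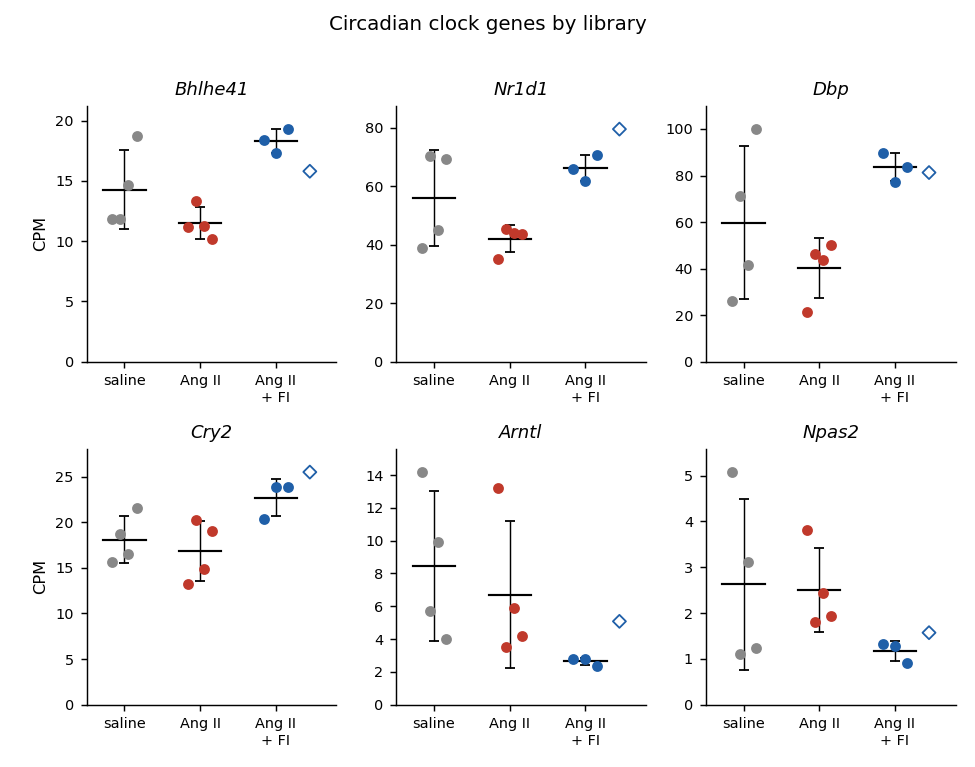
CPM of 6 clock genes in saline (grey), Ang II (red) and Ang II + FI (blue) libraries; bars are the mean with the SD over 4, 4 and 3 libraries, and the open diamond is the FI library with liver transcripts, which is in no mean. The blue points lie above the red for Bhlhe41, Nr1d1, Dbp and Cry2 and below them for Arntl and Npas2, and the grey points are spread widely.

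Of 37 inflammatory genes, 1 had an unadjusted p under 0.05, beside 7.93% of all genes. It was the interleukin 1 receptor gene Il1r1, at 14.1 to 19.1 CPM in Ang II and 11.1 to 12.4 CPM with FI (-0.46 ± 0.12). The cytokine genes Il1b (-0.11 ± 0.31), Tnf (-0.62 ± 0.70), Il6 (-0.73 ± 0.98) and Ccl2 (0.10 ± 0.44) had standard errors larger than the values themselves, and Tnf and Il6 stayed under 0.5 CPM in the 7 libraries. Il4ra, the receptor for interleukins 4 and 13, lay at 18.5 to 21.4 CPM in Ang II and 10.9, 15.1 and 13.6 CPM with FI (-0.56 ± 0.12, adjusted p = 0.526 by edgeR and 0.0295 by DESeq2). Macrophage markers had a median of -0.06 over 27 genes, whose sign rested on single libraries. It was 0.0047 without Ang II 4, 0.0043 without Ang II + FI 2, -0.12 without Ang II 2, -0.11 without Ang II + FI 4, -0.12 with all 12 libraries and -0.17 when scaled by library totals. They had summed levels of 705 to 852 CPM in Ang II and 726 to 810 CPM with FI. Of 29 interferon-stimulated genes, 22 lay below 0 and 4 had an unadjusted p under 0.05, with a median of -0.13 that was 0.00045 with all 12 libraries and -0.23 when scaled by library totals. Rsad2, the antiviral protein viperin, lay at 14.4 to 20.6 CPM in Ang II and 10.9 to 12.5 CPM with FI (-0.58 ± 0.19).

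Growth and stress regulators were scattered. Egfr, the receptor of epidermal growth factor, lay at 5.70, 6.27, 7.09 and 5.53 CPM in Ang II and at 2.81, 3.78 and 3.45 CPM with FI (-0.88 ± 0.17, adjusted p = 0.526 by edgeR and 0.00935 by DESeq2). Errfi1, which inhibits that receptor, lay at 46.7, 21.5, 20.7 and 38.3 CPM and at 16.8, 16.1 and 15.4 CPM (-0.98 ± 0.26, DESeq2 adjusted p = 0.0459). Both genes are abundant in liver, and the library with liver transcripts lay at 29.2 CPM for Egfr and 343 CPM for Errfi1, which turned the values to 0.68 and 1.62. Cdkn1a, the cell cycle inhibitor p21, lay at 19.7 to 27.5 CPM in Ang II and 11.4 to 15.5 CPM with FI (-0.79 ± 0.22). Bdnf, a neurotrophin, lay at 6.32, 6.30, 5.08 and 5.19 CPM in Ang II and at 7.90, 13.2 and 10.7 CPM with FI, beside 6.79 to 10.3 CPM in saline (0.89 ± 0.19, adjusted p = 0.526 by edgeR and 0.0186 by DESeq2). Hmox1 (0.04 ± 0.17) and Nqo1 (0.13 ± 0.12), the antioxidant targets of NRF2, and Agtr1a, the type 1 angiotensin receptor (0.05 ± 0.17), had overlapping groups, and Hmox1 and Agtr1a changed sign when scaled by library totals. Of the small heat shock proteins of muscle, Hspb7 lay at 726 to 899 CPM in Ang II and 1022 to 1105 CPM with FI (0.33 ± 0.12).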

How the data were processed

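RNA was sequenced from 12 ventricular samples of mice. The authors deposited raw counts per gene. The submitters' processing notes name build GRCm38 and the tools featureCounts 1.5.0-p3, HISAT and DESeq 1.8.3; the annotation, the strand setting and the handling of multiply mapped reads were not given in the sources used here. Per the labels' protocols, TRIzol extraction is named in one field and an RNeasy kit in another, and 1.3 µg entered a SMARTER kit. Of 55421 genes, 27438 had no counts. GENCODE M21 matched 55240 gene IDs (99.7%) for coordinates and overlaps. Groups came from the treatment label.

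Counts of 11 libraries were filtered (filterByExpr), scaled by TMM and tested with edgeR 4.0.16 (quasi-likelihood test, 3 group means, no covariates) in R 4.3.3, with Benjamini-Hochberg adjustment over 17702 genes and a threshold of 0.05. CPM use TMM-scaled totals; log2 fold changes carry standard errors and compare Ang II + FI with Ang II. The p-values of edgeR set each difference against the spread within groups, estimated over these 11 libraries, saline included. The same procedure on simulated counts of 17248 genes for this comparison recovered 12 of 76 genes with a 1.5-fold change, 26 of 66 with a 2-fold change and 38 of 53 with a 4-fold change, and 3 of its 79 calls were of unchanged genes. With 79 calls the adjusted threshold is easier to pass than with the 1 call of the data. The simulated rates can therefore be higher than those of this comparison. A library's floor of 3 counts equals 0.0367 to 0.0449 CPM and covers counting error only.

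The members and 44 gene lists were chosen with earlier results of these data known. Genes named are the called gene, the 10 smallest p in each direction among protein-coding genes that average 1 CPM or more without overlap, up to 3 members of each list by p at an unadjusted p under 0.05, and a fixed panel of 30. List members named beyond those 3, and genes said to be looked up later, were chosen after their values were seen. Alternatives were DESeq2 1.42.0, limma-voom (limma 3.58.1), other scalings and filters, a robust prior, the 7 or all 12 libraries, a replicate block and each library left out. Tables were made with Python 3.11.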

Additional observations from a re-analysis of the deposited data

Results flagged for a closer look

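Each group of 4 Ang II libraries was examined for 1 library far from the other 3 in each named gene, over 136 groups of values; chance flags about 1 in 20 groups, and 14 were found. Ang II 2 stood apart for Hnrnpa3 (10.4 CPM against 38.9 to 43.9 in the others), Mmp2 (64.3 against 73.9 to 74.2), Gja5 (7.87 against 5.21 to 5.53), Kit (3.83 against 5.37 to 5.53), Hbb-bs (23.5 against 42.1 to 44.5) and Gm20498 (0.112 against 0.0530 to 0.0612). Ang II 4 was the highest library for Eln (65.4 CPM against 46.2 to 49.1), Loxl2 (25.9 against 21.3 to 21.7) and Dnajb9 (34.7 against 30.2 to 30.7). Ang II 1 was the lowest for Tsr2 (7.29 CPM against 8.26 to 8.33). Ang II 3 was low for Rsc1a1 (0.278 CPM against 6.16 to 7.11) and high for Cyp2e1 (2.71 against 0.112 to 0.355), Alb (17.8 against 0 to 0.930) and the summed hepatocyte markers (120.2 against 35.9 to 44.9).

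Outside the comparison, the Ang II + FI library that was left out held 29364 CPM on the 25 hepatocyte markers, above the 29.2 to 37.9 CPM of the saline libraries.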

How the results depend on the processing

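Of 2962 gene values under the 22 alternatives, 2900 kept direction and side of the threshold. Every named gene but Hnrnpa3 was uncalled as reported, so for those genes this asks only for the same sign and no call, whatever the size. The count is therefore no measure of how stable the sizes are. Hnrnpa3, the called gene, lost its call in 5 alternatives. Genes higher and lower, 0 and 1 as reported, became 8 and 18 with DESeq2, 1 and 0 with the 7 libraries alone, and 0 lower with limma-voom, a robust prior or all 12 libraries. With 1 library left out, 0 to 1 were higher and 1 to 4 lower, 1047 to 1880 had an unadjusted p under 0.05, and 1675 to 4147 had no overlap (933 with all 12 libraries, 1684 as reported). Of 44 list medians, 23 moved with scaling by library totals and 13 with all 12 libraries. The split at an unadjusted p under 0.05 was 948 higher and 781 lower with all 12 libraries.

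Same-numbered Ang II and FI libraries had correlations of deviations of -0.028, -0.042 and 0.094, inside the range of -0.069 to 0.104 for differently numbered ones. No sign of pairing by number was seen, but so few pairs cannot exclude it. With the replicate block 1 gene was higher (Fam168a) and 1 lower (Hnrnpa3, -3.87), and Agtr1a turned to -0.017, Il1b to 0.072 and Alb to 0.45.

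With all 12 libraries, values reversed for Fn1 (0.99), Rsc1a1 (0.52), Egfr (0.68), Mylk (0.11), Errfi1 (1.62), Cyp2e1 (8.36), Hp (5.62), Gdf15 (2.39) and Alb (9.50); Alb also reversed with limma-voom (1.01). Scaled by library totals, Ccn2 (-0.00437), Agtr1a (-0.0591), Hmox1 (-0.0586), Per2 (-0.011), Ddi2 (-0.071) and Cox16 (-0.018) reversed. With 1 library left out, the ranges that crossed 0 were -0.015 to 0.19 for Ccn2, -0.067 to 0.11 for Agtr1a, -0.26 to 0.043 for Il1b, -0.098 to 0.25 for Ccl2, -0.029 to 0.14 for Hmox1, -2.52 to 1.46 for Alb, -0.19 to 0.28 for Per2, -0.069 to 0.11 for Ddi2 and -0.091 to 0.25 for Cox16. The cause of these changes was not tested. Liver transcripts were measured in the added library, but their part in these changes was not tested either. Depth limits genes near 3 counts a library, such as Tnf and Il6.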

Other observations

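Transcripts absent from one group were few. Of the 17702 genes tested, 12 had 0 counts in the 3 Ang II + FI libraries and at least 1 count in each Ang II library, and 1 showed the opposite. The opposite asks for 0 counts in 4 libraries in place of 3, so the counts of the directions cannot be compared. The most abundant were Etfbl, an electron transfer flavoprotein model that overlaps Etfb, with 12 to 170 counts in Ang II and at least 84.0-fold less with FI against a floor of 3 counts over the group, and Fbln7, a matrix glycoprotein gene, with 12 to 36 counts and at least 21.8-fold less. Etfbl also had 0 counts in every saline library, and the left-out FI library had 5 counts of each gene. Ces5a, a carboxylesterase gene, had 0 counts in the Ang II libraries and 5 to 26 with FI, at least 22.8-fold more. These genes were chosen after their values were seen, for having no counts in 1 group. Their folds follow from that choice and only describe it.

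Red blood cell markers, which are carried in with blood left in the tissue, had a median log2 fold change of 0.78 over 8 tested genes, with all 8 above 0. The median was 0.45 without Ang II + FI 1 and 1.06 without Ang II + FI 2. Their summed level was 184 to 330 CPM with FI and 145 to 184 CPM in Ang II, and 196 to 290 CPM in saline. Cytosolic ribosomal protein genes lay above 0 in 33 of 34 cases, with a median of 0.12, which was 0.06 without Ang II + FI 4, 0.07 without Ang II 1 or with all 12 libraries and 0.03 when scaled by library totals. Proteasome, atrophy and autophagy genes lay above 0 in 23 of 27 cases, with a median of 0.12 that was 0.02 when scaled by library totals. Cell cycle genes had 0 of 28 at an unadjusted p under 0.05, and the sign of their median of -0.07 rested on single libraries. It was -0.45 without Ang II + FI 1, 0.04 without Ang II + FI 2, -0.17 without Ang II 2, -0.11 without Ang II 3, 0.0026 without Ang II 4 and -0.17 when scaled by library totals. Glucocorticoid targets and metallothioneins had 14 of 17 below 0, with a median of -0.28 that was -0.12 without Ang II 4 and -0.08 with all 12 libraries.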
